A study of Mus musculus with 4 samples.

Results

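The Ly6 genes encode small surface proteins built on the three-finger fold of the LY6/uPAR superfamily, and most are tethered to the cell membrane by a glycosylphosphatidylinositol (GPI) anchor. Here 10 of them were followed by gene symbol: Ly6a, Ly6c1, Ly6c2, Ly6d, Ly6e, Ly6g, Ly6i, Ly6k, Gml and Lypd8. Of these 10 genes, 7 were read by a probe set annotated to that symbol alone, out of 19938 genes so measured, and all 7 passed a floor of a log2 intensity of 6 on the highest array, which 12526 genes passed. Ly6c1 and Ly6c2 shared 2 probe sets annotated to both genes and are given jointly, and Ly6a was not analysed here. The genes were picked with their readings on these arrays known, so their levels and differences are a description and carry no test.

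Colonic epithelial cells came from C57BL/6 mice, 6 to 8 weeks old, taken on day 12. All mice had received azoxymethane (10 mg/kg), a carcinogen, and afterwards dextran sulfate sodium (3.5%) in drinking water for 5 days, which injures the gut lining; together these model cancer arising from colitis. The groups were mice with both Polycomb genes Bmi1 and Mel18 (symbol Pcgf2) deleted in intestinal epithelium (Bmi1ΔIEC Mel18ΔIEC, DKO below), mice with Bmi1 deleted (Bmi1ΔIEC, Bmi1_KO), mice with Mel18 deleted (Mel18ΔIEC, Mel18_KO) and wild type mice (WT). Each group had 1 Affymetrix Mouse Gene 1.0 ST array, and the labels name no Cre driver and give no number of mice behind an array. With no replicate of any group, no difference below has a replicate check. The nearest guide to noise is the spread over genes between the closest arrays, a scaled median absolute deviation of 0.19 (log2) for Bmi1_KO minus WT, against 0.57 for DKO minus WT; both include true differences between genotypes.

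Several Ly6 proteins are known as markers that sort white blood cells: Ly6g and Ly6c mark neutrophils and monocytes in mouse blood. Others belong to epithelia, among them Lypd8 of the colon surface. Interferons raise transcription of several family genes in many cell types, and most of the family lies in 1 cluster on mouse chromosome 15.

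Facts of the arrays bear on every value here. Bmi1 itself read 7.64, 7.43, 6.999 and 7.25 on DKO, Bmi1_KO, Mel18_KO and WT, and Pcgf2 read 6.81, 6.72, 6.84 and 6.96, so neither was clearly lower on the arrays labelled as lacking it and neither checks the labels. Which parts of the genes were deleted is not stated in the labels, and groups are named as labelled. The DKO array stood apart, with a correlation across genes of 0.878 to 0.906 with the other arrays, against 0.978 to 0.982 among those. The WT array carried transcripts of seminal vesicle: Svs4 read 4.16 in DKO cells, 5.73 in Bmi1_KO, 4.67 in Mel18_KO and 12.17 in WT. Of 11 listed genes past the floor, 11 reached it in WT cells, 3 in Bmi1_KO, 1 in Mel18_KO and 1 in DKO. Most thus entered through WT, so a lower reading in DKO than in WT was largely set by the filter. In DKO, 10 of 11 read at least 2-fold lower than in WT, and 2 of 11 did so against the mean of the single deletions. Over all genes 8.19% and 6.51% did. DKO is therefore set below both against WT and against the mean of Bmi1_KO and Mel18_KO. No sort of the cells is described, and in such bulk material fewer cells of a type and less RNA per cell cannot be told apart. All 17 epithelial genes of a marker list passed the floor on every array, among them Krt8 (13.08, 13.17, 13.21 and 13.06), a keratin of simple epithelium.

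The readings fell into 3 kinds: Ly6i, Ly6d and Gml were far higher on DKO than on any other array; Lypd8, Ly6g, Ly6e and the Ly6c probe sets were nearly level; and Ly6k was nearly level close to the floor. In DKO against WT, 3 of the 7 measured genes read at least 2-fold higher and 0 lower. Over all genes tested 7.33% were at least 2-fold higher and 8.19% lower in that comparison. Against the mean of the single deletions the counts were again 3 and 0, where 7.33% of all genes were higher and 6.51% lower. The balance over all genes moved with the scaling: it was 918 higher and 1026 lower against WT as deposited, and 1114 and 718 when arrays were centred on the median of the genes past the floor. Against the single deletions it was 918 and 816 as deposited, 1046 and 555 after cyclic loess, and 1084 and 558 after that centring. Since the genes were picked for these readings, nothing is drawn from the shares.

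**Figure D1:**
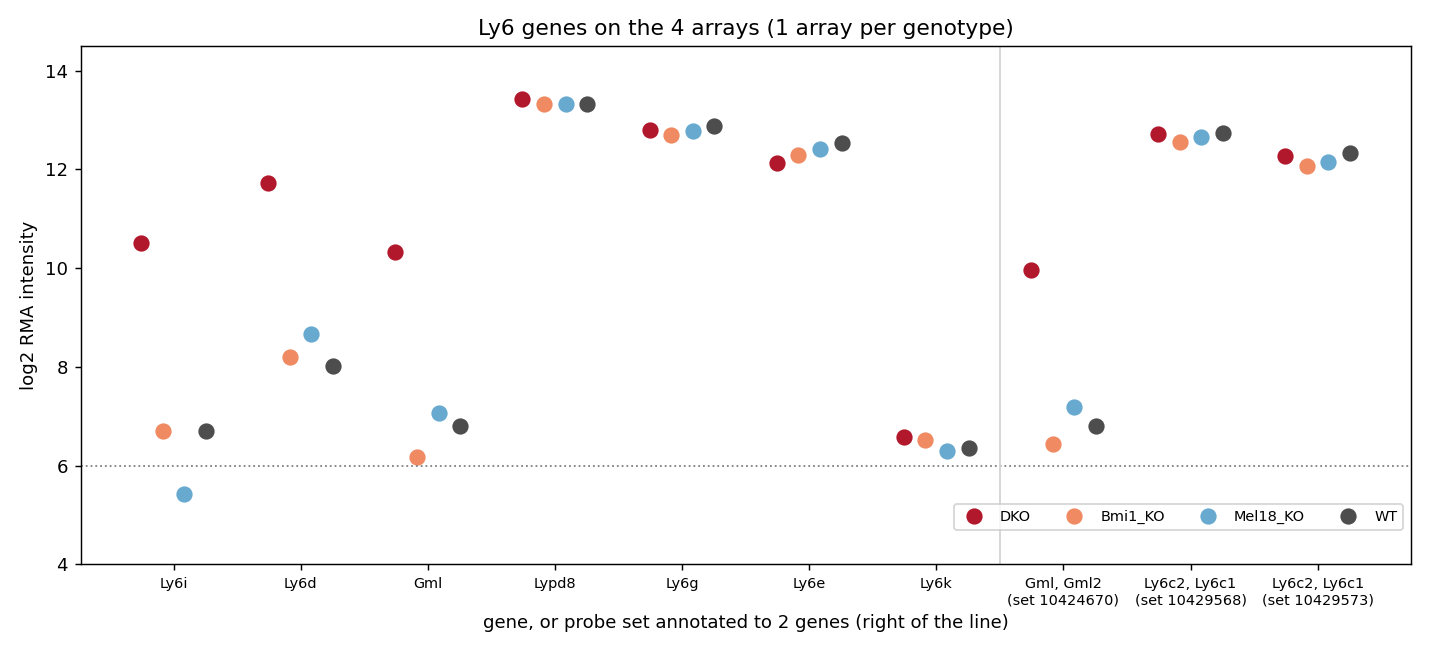
Log2 RMA intensity (vertical axis) of the 7 Ly6 genes with a probe set of their own, and right of the line of 3 probe sets annotated to 2 genes, on the 4 arrays, 1 point per array, with the floor of 6 dotted. Ly6i, Ly6d, Gml and the set shared by Gml and Gml2 sit between 9.96 and 11.72 on DKO, above the other arrays, while Lypd8, Ly6g and both Ly6c sets are nearly level.

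Ly6i, a GPI-anchored protein found on myeloid and other blood cells, had the widest range. It read 10.51 in DKO cells, 6.70 in Bmi1_KO, 5.43 in Mel18_KO and 6.71 in WT (log2 intensity, probe set 10429560). DKO was the high array and Mel18_KO the low one, while Bmi1_KO and WT were almost equal. The difference of DKO from WT was 3.80, or 13.9-fold, the 8th highest of all genes tested. Against the mean of the single deletions it was 4.44, and 3.88 with 32 added to each intensity before log2. Mel18_KO minus WT was -1.28. Since 5.43 lies under the floor, the sizes of both differences that use Mel18_KO are rough.

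Ly6d, which marks B cell commitment among lymphoid progenitors and is also made by stratified epithelium, read 11.72 in DKO cells, 8.19 in Bmi1_KO, 8.66 in Mel18_KO and 8.01 in WT (probe set 10429520). The other arrays lay within 0.66 of each other, and DKO lay 3.06 above the nearest of them, Mel18_KO. The difference was 3.71 (13.1-fold) from WT and 3.29 (9.78-fold) from the single deletions. In contrast to Ly6i, the lowest array was WT and not Mel18_KO.

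Gml, a gene of the cluster named for its likeness to GPI-anchored proteins, read 10.32 in DKO cells, 6.17 in Bmi1_KO, 7.07 in Mel18_KO and 6.80 in WT (probe set 10429534). DKO was again alone, by 3.25 over the nearest array. Bmi1_KO was lowest and lies just over the floor, so the sizes of differences that use it are rough. The difference was 3.53 (11.5-fold) from WT and 3.70 (13.02-fold) from the single deletions. A further probe set, annotated to both Gml and its neighbour Gml2, read 9.96, 6.44, 7.19 and 6.80 on DKO, Bmi1_KO, Mel18_KO and WT. It put the 4 arrays in the same order, with a difference of 3.16 from WT, and whether it reads one or both genes was not tested.

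Lypd8, a heavily glycosylated protein that colonic epithelium places on its surface and sheds, and that keeps flagellated bacteria away from the lining in mice, read 13.42 in DKO cells, 13.32 in Bmi1_KO, 13.32 in Mel18_KO and 13.32 in WT (probe set 10376366). The range over the arrays was 0.10, smaller than the 0.19 spread between the closest arrays. The brightest probe set on any array read 13.75, so Lypd8 sits close to the top of the scale, where differences can be compressed. Its difference from WT was 0.10 on DKO as deposited, and 0.02 to 0.34 over the alternative settings.

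Ly6g, the protein bound by antibodies used to count mouse neutrophils, read 12.79 in DKO cells, 12.70 in Bmi1_KO, 12.78 in Mel18_KO and 12.88 in WT (probe set 10424683). Its range was 0.18, and its difference of DKO from WT was -0.09 as deposited but 0.14 after cyclic loess, so no direction is given. The probe set annotated to Ly6g did not follow most of the neutrophil genes on these arrays. Over 17 neutrophil genes past the floor, 15 read at least 2-fold higher in DKO, both against WT and against the single deletions, and 11 read at least 2-fold lower in Mel18_KO than in WT. Over all genes 7.33% were higher in each DKO comparison and 0.814% lower in Mel18_KO than in WT. Cd177 and Camp, also of the 17, did not follow the others. Cd177 read 10.20 in DKO cells, 10.85 in Bmi1_KO, 10.65 in Mel18_KO and 10.81 in WT. Camp read 6.21, 6.25, 5.73 and 5.65 on those arrays. The calprotectin gene S100a8 read 12.23 in DKO cells, 11.45 in Bmi1_KO, 8.91 in Mel18_KO and 10.13 in WT. The granule protein gene Ngp read 10.41, 10.09, 4.35 and 7.48 on DKO, Bmi1_KO, Mel18_KO and WT, and 4.35 lies under the floor. Both genes were highest on DKO and lowest on Mel18_KO, an order the Ly6g set did not show. Like Lypd8, Ly6g read near the top of the scale, where differences can be compressed.

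The 2 probe sets annotated to both Ly6c2 and Ly6c1, whose products mark monocytes and, for Ly6c1, also endothelium, were as level. The first (10429568) read 12.71 in DKO cells, 12.56 in Bmi1_KO, 12.65 in Mel18_KO and 12.75 in WT. The second (10429573) read 12.27, 12.07, 12.15 and 12.34 on those arrays. In both, WT was highest and Bmi1_KO lowest, with ranges of 0.18 and 0.26, and the differences of DKO from WT were -0.03 and -0.07. These sets also read high on the scale, where differences can be compressed. Monocyte and macrophage genes were not level: 17 of 19 past the floor read at least 2-fold higher in DKO in both comparisons. Over all genes 7.33% did in each. Of the 19, Ms4a7 and Adgre1 reached the floor on DKO alone. Among the 17 was Ccr2, the receptor by which Ly6C-positive monocytes leave the marrow. It read 8.27 in DKO cells, 5.90 in Bmi1_KO, 5.49 in Mel18_KO and 6.05 in WT. How far probes separate near-identical family members was not tested, so values of Ly6g, Ly6c1 and Ly6c2 are uncertain as to which copy they read. The same limit holds for other genes of the cluster, among them Ly6i and, below, Ly6a2.

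Ly6e, a widely made interferon-induced protein that restricts entry of coronaviruses, read 12.13 in DKO cells, 12.28 in Bmi1_KO, 12.42 in Mel18_KO and 12.53 in WT (probe set 10424676). WT was the highest array and DKO the lowest. The difference from WT was -0.40 on DKO, within the 0.57 spread of that comparison but past the 0.19 between the closest arrays. It was -0.48 to -0.18 over the alternative settings, with -0.18 after cyclic loess. Ly6k, needed for sperm function in mice and otherwise little made outside testis, read 6.58 in DKO cells, 6.51 in Bmi1_KO, 6.29 in Mel18_KO and 6.35 in WT (probe set 10429528). All 4 readings lie just over the floor, and its difference of DKO from WT was 0.23.

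With either gene deleted alone, few of these genes differed. In Bmi1_KO against WT, 0 of 7 were at least 2-fold higher and 0 lower, where 0.551% and 0.359% of all genes were. The furthest was Gml at -0.63, and at -0.46 with 32 added to each intensity before log2. That background was 69 higher and 45 lower as deposited and 44 and 52 when arrays were centred on the median of all probe sets. In Mel18_KO against WT, 0 of 7 were higher and 1, Ly6i, was lower, with backgrounds of 0.144% and 0.814%. Ly6d was higher by 0.66 on Mel18_KO than on WT. In Bmi1_KO against Mel18_KO, 1 of 7, Ly6i (1.27), was at least 2-fold higher and 0 lower, with backgrounds of 1.53% and 0.224%. These comparisons share arrays, so Ly6i enters through the same low reading on Mel18_KO in both.

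At 1.5-fold the same 3 genes stood out in DKO against WT, with 0 lower, where 14.3% of all genes were higher and 20.2% lower. Against the single deletions it was again these 3, and 0 lower, where 14.0% and 18.8% of all genes were. In Bmi1_KO against WT, 0 of 7 were higher and 1, Gml, lower (backgrounds 2.02% and 1.53%). In Mel18_KO against WT, 1, Ly6d, was higher and 1, Ly6i, lower (1.19% and 2.35%). In Bmi1_KO against Mel18_KO, 1, Ly6i, was higher and 1, Gml (-0.90), lower (3.26% and 1.24%).

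The wider LY6/uPAR list held 48 symbols, of which 41 were measured and 24 passed the floor. Apart from the 7 genes above, 17 passed, all of them at or above the floor on WT as well as on DKO, so none entered through a high DKO reading alone. Of these 17, 4 read at least 2-fold higher in DKO than in WT and 0 read lower, where 7.33% and 8.19% of all genes were. Against the single deletions the counts were again 4 and 0, where 7.33% and 6.51% of all genes were. With arrays centred on the median of all probe sets, 3 were higher in each comparison. The median difference of the 17 was 0.27 against WT and 0.14 against the single deletions, beside -0.05 and -0.07 over all genes tested. The list was written with earlier results of these data known.

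The 4 genes were Ly6a2, Plaur, Ly6g2 and Ly6m. Ly6a2 read 9.99 in DKO cells, 8.48 in Bmi1_KO, 6.11 in Mel18_KO and 7.75 in WT, a difference of 2.24 for DKO minus WT. Plaur, the urokinase receptor that focuses plasmin activity on the cell surface, read 11.14 in DKO cells, 9.56 in Bmi1_KO, 9.02 in Mel18_KO and 9.34 in WT, a difference of 1.80. Ly6a2, Plaur and Ly6i thus shared DKO as the highest and Mel18_KO as the lowest array.

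Ly6g2 read 10.12 in DKO cells, 8.58 in Bmi1_KO, 9.24 in Mel18_KO and 8.99 in WT (1.13 for DKO minus WT). Ly6m read 12.34 in DKO cells, 11.18 in Bmi1_KO, 11.38 in Mel18_KO and 11.32 in WT (1.02). Both had Bmi1_KO lowest, as Gml did. With arrays centred on the median of all probe sets Ly6m came to 0.94 against WT and 0.996 against the single deletions, under the 2-fold line in both. Lypd3, a keratinocyte protein of the family, differed by 0.80 and Ly6f by 0.36. At the other end stood Cd177, a neutrophil surface protein, at -0.61 (10.20 on DKO and 10.81 on WT), and Lypd6b at -0.52. On the single deletions, 0 of the 17 were at least 2-fold apart between Bmi1_KO and WT, and 1, Ly6a2 (-1.65), was lower on Mel18_KO than on WT.

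**Figure D2:**
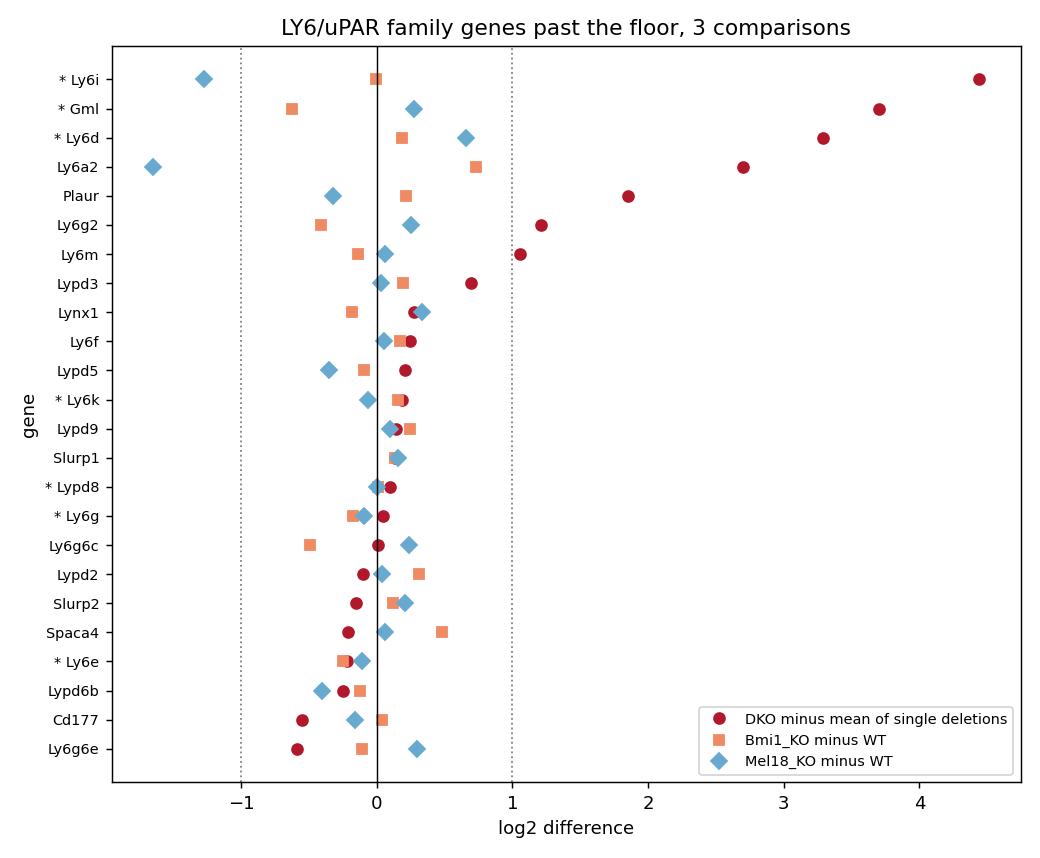
Log2 differences (horizontal axis) of the 24 LY6/uPAR genes past the floor, with circles for DKO minus the mean of the single deletions, squares for Bmi1_KO minus WT and diamonds for Mel18_KO minus WT; the 7 genes described one by one carry a star and dotted lines mark 2-fold. The 7 highest circles lie between 1.06 and 4.44, whereas of the squares and diamonds only those of Ly6i and Ly6a2 on Mel18_KO pass a 2-fold line.

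The genes were taken by symbol, not by position. In RefSeq order, 29 protein-coding genes lie on chromosome 15 from Psca to Gpihbp1, 23 of them on the family list, and 18 of the 23 were measured. Past the floor were 14, and 6 of them read at least 2-fold higher in DKO than in WT, in the order Ly6d, Gml, Ly6m, Ly6i, Ly6a2 and Ly6g2. Over all genes 7.33% were. Ly6d, Gml and Ly6i are among the genes picked with their readings known, so nothing about the stretch is drawn from the 6. The 6 genes did not form 1 unbroken run. Ly6k (0.23) lies between Ly6d and Gml, Ly6e (-0.40) between Ly6m and Ly6i, and Ly6g (-0.09) between Ly6a2 and Ly6g2. At the near end of the stretch, Psca (-0.48) was under the floor, Them6, not on the family list, differed by -0.74, and Slurp1, Lypd2, Slurp2 and Lynx1 differed by 0.01 to 0.35. Lypd8 and Plaur lie outside this stretch.

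**Figure D3:**
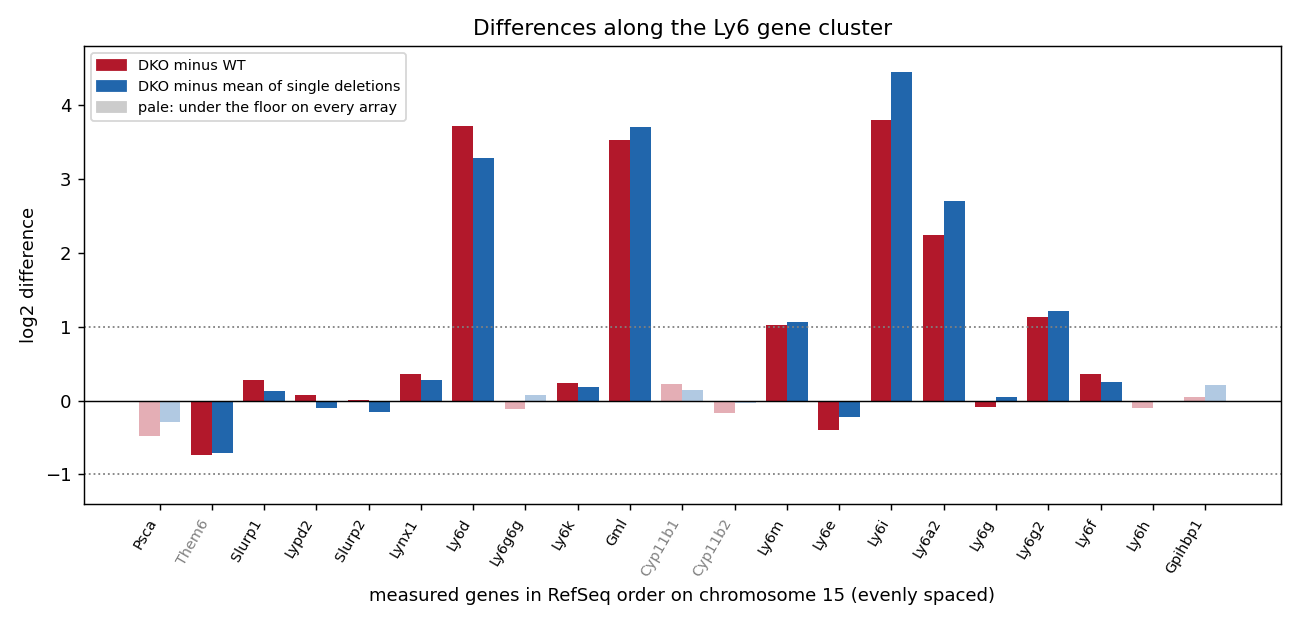
Log2 difference (vertical axis) of DKO from WT (red) and from the mean of the single deletions (blue) for the 21 measured genes of the chromosome 15 stretch in RefSeq order, evenly spaced; grey names are not on the family list, pale bars are genes under the floor and dotted lines mark 2-fold. High bars of Ly6d, Gml, Ly6i and Ly6a2 stand next to near-zero bars of Ly6k, Ly6e and Ly6g.

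Upstream sequence is shown for pairs of genes in the cluster whose start regions are alike. RefSeq windows (GRCm38.p6, 250 bases before to 50 after the annotated start) were held for 4 of the 10 genes, Ly6c1, Ly6c2, Ly6g and Lypd8, and for Ly6a2. The window of Ly6a2, whose probe set ranged from 6.11 to 9.99 over the arrays, aligned to that of Ly6c2, whose shared probe sets were level, over 300 columns with 291 identical (97%). Capitals mark bases that differ or have no partner in that alignment, and bases outside it are in lower case. Ly6a2 lies at chr15:75135079-75135378 and Ly6c2 at chr15:75111922-75112221, both on the minus strand, written 5′ to 3′.
Ly6a2: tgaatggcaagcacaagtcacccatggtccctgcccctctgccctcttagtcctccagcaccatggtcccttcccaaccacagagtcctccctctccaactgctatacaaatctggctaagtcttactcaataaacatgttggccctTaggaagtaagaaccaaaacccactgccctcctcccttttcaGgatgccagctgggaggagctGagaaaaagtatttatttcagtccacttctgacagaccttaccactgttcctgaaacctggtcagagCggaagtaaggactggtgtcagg
Ly6c2: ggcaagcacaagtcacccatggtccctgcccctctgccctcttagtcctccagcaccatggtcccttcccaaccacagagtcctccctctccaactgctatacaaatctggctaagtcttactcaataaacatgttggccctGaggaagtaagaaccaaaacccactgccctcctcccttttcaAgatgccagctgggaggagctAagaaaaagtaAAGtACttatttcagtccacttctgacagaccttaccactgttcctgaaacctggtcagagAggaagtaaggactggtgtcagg

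Among the windows printed here, that of Ly6g aligned best to that of Ly6c1, over 273 columns with 212 identical (77.7%). Both genes are read by level probe sets. They are printed with capitals for the bases that differ between them. Ly6g lies at chr15:75155011-75155310 on the plus strand and Ly6c1 at chr15:75048788-75049087 on the minus strand.
Ly6g: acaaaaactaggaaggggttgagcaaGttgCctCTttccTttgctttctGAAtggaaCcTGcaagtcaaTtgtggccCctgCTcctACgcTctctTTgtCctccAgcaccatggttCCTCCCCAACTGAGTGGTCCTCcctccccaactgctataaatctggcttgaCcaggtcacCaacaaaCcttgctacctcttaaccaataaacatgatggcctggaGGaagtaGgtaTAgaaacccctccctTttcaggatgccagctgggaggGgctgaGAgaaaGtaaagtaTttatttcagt
Ly6c1: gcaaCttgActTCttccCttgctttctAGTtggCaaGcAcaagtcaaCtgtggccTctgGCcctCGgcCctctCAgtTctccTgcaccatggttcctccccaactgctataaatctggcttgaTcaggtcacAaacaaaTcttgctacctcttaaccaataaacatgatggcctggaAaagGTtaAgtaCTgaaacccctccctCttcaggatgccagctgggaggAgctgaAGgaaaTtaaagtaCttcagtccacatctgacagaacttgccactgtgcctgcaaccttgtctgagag

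These 4 windows were searched on both strands for the GAS element of interferon-gamma signalling (TTCNNNGAA), a core of the interferon-stimulated response element, the AP-1 site (TGANTCA) and the TEAD site (GGAATG). None of the 4 windows held any of these, which says only that the letters are not in these stretches. Of 27025 RefSeq windows of the same length, 8.47% held the GAS letters, 3.49% the response element core, 7.93% the AP-1 letters and 14.6% the TEAD letters.

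Ly6i and Ly6a2 were highest on DKO and lowest on Mel18_KO, as were most neutrophil, monocyte and macrophage genes. Among the 12526 genes tested, 35.3% were highest on DKO and 18.9% lowest on Mel18_KO. Of 17 neutrophil genes past the floor 15 were highest on DKO and 15 lowest on Mel18_KO, and of 19 monocyte and macrophage genes 19 and 16. The counts were 15 and 10 of 15 endothelial genes, 15 and 8 of 15 fibroblast genes, 9 and 5 of 11 T and NK cell genes, and 4 and 1 of 6 B and plasma cell genes. In epithelial lists they were 10 and 7 of 14 repair and fetal-like genes and 9 and 2 of 17 pan-epithelial genes. They were 10 and 1 of 16 mature colonocyte genes and 2 and 2 of 9 squamous genes. A gene that reaches the floor on DKO alone is highest there by the filter. On DKO, Bmi1_KO, Mel18_KO and WT, 15, 10, 7 and 9 endothelial genes reached it. For monocyte and macrophage genes these were 19, 16, 14 and 17. The summed intensity of the 20 measured neutrophil genes was 35466 in DKO cells, 20159 in Bmi1_KO, 4337 in Mel18_KO and 9836 in WT. The neutrophil precursor genes Mpo and Elane read under 6 on every array. The 19 measured monocyte and macrophage genes summed to 24578, 11308, 8238 and 9513 on those arrays. The part of these cells in the Ly6i and Ly6a2 readings was not tested.

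Ly6d and Gml put the lower arrays in another order. Their lowest arrays were WT and Bmi1_KO, and Mel18_KO was not low. Markers of cells known to make Ly6d are given beside it. Of 9 squamous genes past the floor, 1 read at least 2-fold higher and 5 lower in DKO than in WT, and 1 higher and 3 lower against the single deletions, with medians of -1.14 and -0.35. The basal keratin Krt5 differed by -2.95 against WT and -1.39 against the single deletions, and it was also lower in Mel18_KO than in WT (-2.41). The desmosomal cadherin Dsg3 differed by 1.77 and 2.09. Of 6 B and plasma cell genes past the floor, 2 read at least 2-fold higher in DKO than in WT and 1 against the single deletions, with 0 lower in both. Over all genes 7.33% were higher in each comparison, and 8.19% and 6.51% lower. Above 0 lay 6 of 6 against WT but 4 of 6 against the single deletions. The B cell receptor genes Cd79a (-0.67) and Cd79b (-0.25) were lower than the single deletions. The immunoglobulin joining chain Jchain differed by 2.91 and 2.66. The B cell surface gene Ms4a1, near the floor at 6.04 in DKO and 5.03 in WT, differed by 1.01 and 0.32. The mature colonocyte list had 3 of 16 higher and 3 lower in both comparisons. The pan-epithelial list had 2 of 17 higher against WT, 1 against the single deletions and 0 lower in both. The part of these cells in the Ly6d and Gml readings was not tested.

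**Figure D4:**
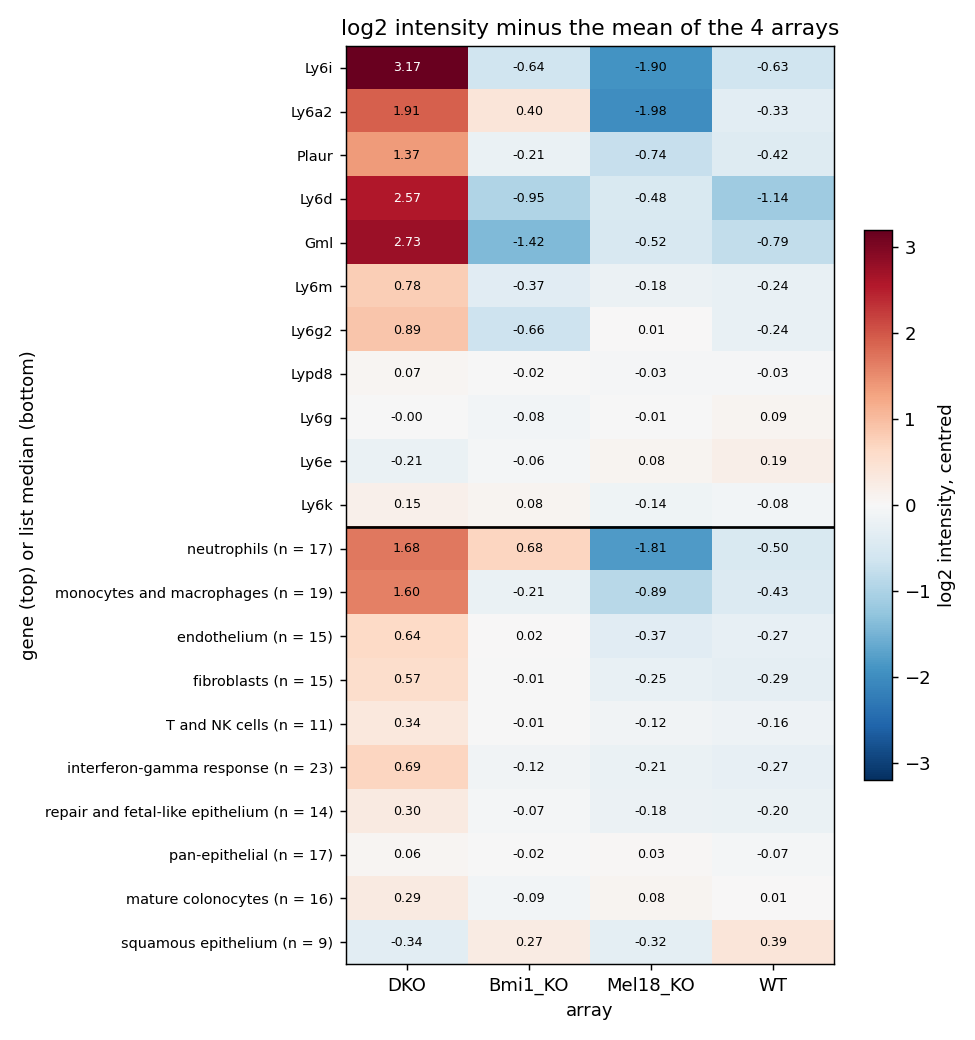
Log2 intensity minus the mean of the 4 arrays (colour and printed values) for 11 LY6/uPAR genes (top) and for the median of each marker or pathway list over its genes past the floor (bottom), with arrays in columns. Ly6i and Ly6a2 are lowest on Mel18_KO (-1.90 and -1.98), whereas Ly6d and Gml are not. The neutrophil (-1.81), monocyte and macrophage (-0.89) and endothelial (-0.37) medians are also lowest there. Ly6i is almost equal on Bmi1_KO (-0.64) and WT (-0.63), while the neutrophil median is 0.68 on Bmi1_KO and -0.50 on WT. Lypd8, Ly6g, Ly6e and Ly6k stay within 0.21 of 0 on every array.

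Interferon-gamma genes were high on DKO beside the Ly6 genes. Ifng itself, the cytokine, read 8.74 in DKO cells, 5.53 in Bmi1_KO, 5.66 in Mel18_KO and 5.66 in WT. Only its DKO reading reached the floor, so the sizes of its differences are rough. Of 23 genes of the response list past the floor 12 read at least 2-fold higher in DKO than in WT and 0 read lower. Ifng is among the 12. Over all genes 7.33% were higher and 8.19% lower. Against the single deletions 9 were higher and 0 lower, where 7.33% and 6.51% of all genes were. The median difference was 1.05 against WT and 0.90 against the single deletions. The furthest against WT were the guanylate-binding protein genes Gbp4 (3.29) and Gbp5 (2.44), Ifng (3.08) and the chemokine Cxcl9 (2.30). Ly6e, which interferons are known to raise, was not higher there (-0.40). On Mel18_KO against WT, 1 of 23 read at least 2-fold higher and 0 read lower, where 0.144% and 0.814% of all genes were. The median was 0.11, and 14 of 23 lay above 0. Among genes high on DKO, Cxcl10 (-0.89), Cxcl9 (-0.56) and Gbp5 (-0.50) were lower on Mel18_KO, while Iigp1 (1.12) and Ido1 (0.75) were higher. Which cells carried these transcripts was not tested.

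Genes that build, attach, remodel or cleave the GPI anchor read somewhat lower in DKO. All 30 measured genes of the list passed the floor, and 6 read at least 2-fold lower in DKO than in WT and 0 read higher, where 8.19% and 7.33% of all genes were. The 6 depended on the scaling: 4 were lower after cyclic loess and 2 with arrays centred on the median of the genes past the floor. The median of the list was -0.39 as deposited and -0.25 with that centring, beside -0.05 and 0.10 over all genes. The furthest were the mannosyltransferase Pigb (-1.27), Pigq (-1.17), a subunit of the enzyme that starts the anchor, and Pigf (-1.13) and Pigo (-1.11), which together add ethanolamine phosphate. Against the single deletions 5 read lower and 0 higher, with 2 lower after cyclic loess and 4 with that centring, and the median was -0.44 as deposited. On Bmi1_KO and Mel18_KO against WT 0 of 30 were 2-fold apart, with medians of -0.04 and 0.01.

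The closest profiles were ranked by the root mean square difference of log2 readings, each gene centred on its mean over the 4 arrays, among named genes outside the family. For Ly6i they were Clu, the chaperone clusterin (0.32), Clec4n, a myeloid lectin receptor (0.35), and Fcgr4, a myeloid Fc receptor (0.38). For Ly6d they were the lectin-like gene Clec2e (0.24), the pantetheinase Vnn1 (0.24) and the lipoprotein assembly gene Mttp (0.24). For Gml they were Clec2e (0.17), Vnn1 (0.20) and Apob (0.25), which encodes the protein core of chylomicrons. With 4 arrays such likeness is a description of these readings.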

How the data were processed

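The authors deposited 1 intensity per probe set, not log-transformed, and the submitters' processing notes name Affymetrix Expression Console and RMA without versions. RMA scales arrays to 1 distribution, so a shift shared by most genes is removed. Log2 was taken, and each gene was read by its brightest probe set among the 21789 with 1 symbol in the platform annotation (1621 carried several symbols, 12146 none), of 35556. Genes reaching a log2 intensity of 6 on any array entered counts at 2-fold. With 1 array per genotype there was no test, and precision is limited by that number.

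The genes and lists were chosen with earlier results of these data known. All 10 genes, family genes at least 2-fold apart on DKO and a few others, up to 4 leading genes and the most abundant gene per list, and the 3 nearest profiles were to be named. Genes used as examples for their known role (S100a8, Ccr2, Mpo, Elane, and neighbours along the chromosome) were picked after their values were seen. Windows were aligned locally (match 2, mismatch -3, gap -5 and -2), using the earliest listed window per gene. Counting was tested on simulated data. Alternatives were other floors, scalings, thresholds, an added 32, and averaged probe sets. Analyses used Python 3.11.15, numpy 2.4.6, pandas 2.3.3, R 4.3.3 and limma 3.58.1 (cyclic loess).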

Additional observations from a re-analysis of the deposited data

Results flagged for a closer look

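For 2 genes the difference between mice with and without Mel18 ran in opposite directions depending on Bmi1, each by at least 2-fold. For Ly6i, DKO minus Bmi1_KO was 3.81 (log2) while Mel18_KO minus WT was -1.28, and for Ly6a2 the values were 1.51 and -1.65. With 1 array per genotype this difference was not tested, and the Ly6i reading on Mel18_KO (5.43) lies under the floor of 6.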

How the results depend on the processing

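The counts of 3 of the 7 Ly6 genes at least 2-fold higher on DKO, against WT and against the single deletions, and of 0 lower, were the same under every alternative run. Over the settings other than thresholds, DKO minus WT ran from 3.45 to 3.94 for Ly6i, 3.56 to 3.86 for Ly6d and 3.196 to 3.67 for Gml. The 2-fold difference of Ly6i on Mel18_KO did not hold with 32 added before log2 or at 3-fold: 0 genes were then lower on Mel18_KO than on WT, and 0 higher on Bmi1_KO than on Mel18_KO. At 1.5-fold, 1 gene (Ly6d) was higher on Mel18_KO than on WT, 1 (Gml) lower on Bmi1_KO than on WT, and 1 (Gml) lower on Bmi1_KO than on Mel18_KO, the last also at 2-fold with arrays centred on the median of all probe sets (1 gene).

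Over all genes, 1.5-fold gave 1794 higher and 2524 lower for DKO against WT, 1757 and 2358 against the single deletions, 253 and 192 for Bmi1_KO against WT, 149 and 294 for Mel18_KO against WT, and 408 and 155 for Bmi1_KO against Mel18_KO. At 3-fold these were 432 and 198, 423 and 109, 13 and 18, 5 and 37, and 89 and 4. Adding 32 gave 542 lower for DKO against the single deletions, 40 higher for Bmi1_KO and 8 higher and 62 lower for Mel18_KO against WT, and 14 lower for Bmi1_KO against Mel18_KO. Centring on the median of all probe sets gave 44 higher for Bmi1_KO against WT, and a floor of 8 gave 8 higher for Mel18_KO. Centring on the median of the genes past the floor was added after the data were seen. Dim readings limit the size of differences, as on Mel18_KO for Ly6i. No paired analysis was possible because each group has 1 array.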

Other observations

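The difference of DKO from WT exceeded the sum of the separate differences of Bmi1_KO and of Mel18_KO from WT by 5.08 for Ly6i, 3.88 for Gml and 2.87 for Ly6d on the log2 scale. For Ly6i it came to 4.31 with 32 added to each intensity, and its Mel18_KO reading lies under the floor. As deposited this excess was 0.18 for Ly6g, 0.14 for Ly6k, 0.09 for Lypd8 and -0.04 for Ly6e, the last 0.17 after cyclic loess. All 4 arrays enter it, and it has no separate estimate of error. Among genes of epithelial repair, a program in which Ly6a is often counted, 3 of 14 past the floor read at least 2-fold higher in DKO than in WT and 0 lower, where 7.33% and 8.19% of all genes were. The chaperone gene Clu differed by 3.69 against WT and 3.81 against the single deletions, and the alarmin Il33 by 2.66 and 2.598. Mesothelin, Msln, differed by 1.92 against WT but 0.83 against the single deletions, where Ereg (1.09) made up the count of 3. Msln was also higher in Bmi1_KO (1.27) and Mel18_KO (0.92) than in WT. Genes of endothelium, where Ly6c1 is known to be made, read at least 2-fold higher in DKO in 5 of 15 cases against WT and 3 against the single deletions (Cd93 2.14 and 2.03, Pecam1 1.74 and 1.76). The endothelial count against WT was 9 with arrays centred on the median of the genes past the floor and 2 with 32 added. Fibroblast genes were higher in 7 of 15 cases in both comparisons (Pdpn 1.82 and 1.67, Vim 1.72 and 1.82). T and NK cell genes were higher in 2 of 11 cases against WT and 3 against the single deletions (Il7r 2.26 and 2.34, Cd3g 1.28 and 1.13). In these 3 lists 0 genes were at least 2-fold lower in either comparison. Over all genes 7.33% were at least 2-fold higher in each. Some endothelial and fibroblast genes, such as Emcn and Dpt, reached the floor on DKO alone, so by the filter they could only read highest there.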
